A study of Mus musculus with 8 samples.

Results

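A set of 10 secreted regulators of the transforming growth factor beta (TGF-beta) family was followed through the cells of the mouse intervertebral disc at 2 ages. They were chosen by name, with earlier results of these data known, and are all 10 of the genes listed, out of 31053 genes in the count matrices. The set holds the ligands Tgfb1, Tgfb2 and Tgfb3 and the TGF-beta-induced matrix protein Tgfbi. It also holds the BMP and activin ligands Bmp2, Bmp4 and Inhba, and the BMP antagonists Grem1, Chrd and Nog. Each name matched 1 row of the matrices, and every one of the 10 had UMIs (unique molecular identifiers, each standing for 1 captured transcript) at both ages. The widest contrasts with age among the larger classes were in tendon fibroblast-like cells, in which Grem1 stood at 1238 CPM at 8 weeks and 45.7 CPM at P10, and Inhba at 858 CPM at 8 weeks and 63.2 CPM at P10. The cells of this class came from different clusters at the 2 ages. Without the 8-week cluster 6 the log2 ratio of Inhba was 1.12 in place of 3.76, and that of Grem1 4.11 in place of 4.76. In cells of the nucleus pulposus, 7 of the 10 genes lay at least 2-fold under the other cells of the disc at 8 weeks. So did 18.7% of all genes tested. At P10, 6 of 10 did so, as did 19.0% of all genes. These counts include genes that reached the minimum number of UMIs set for testing only through the other cells. They were Bmp4 and Nog at 8 weeks, and Bmp2, Bmp4 and Nog at P10. Tgfb2 and Chrd had levels above those of the other cells at both ages, past 2-fold at P10, where Tgfb2 was under 2-fold with other scalings.

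TGF-beta ligands are secreted in a latent form, held by binding proteins in the matrix until they are released, and signal through type I and type II receptor kinases to Smad2 and Smad3. BMPs use related receptors and Smad1, Smad5 and Smad9, while gremlin, chordin and noggin bind BMPs outside the cell and keep them from their receptors. In the spine, noggin and chordin are made by the embryonic notochord, from which the nucleus pulposus descends, and TGF-beta signalling is needed for the annulus fibrosus and the endplates to form.

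The samples were whole intervertebral discs from the lumbar and tail spine of Tagln-CreERt2;R26tdTomato mice, harvested at 8 weeks of age or on postnatal day 10 (P10). In both ages the mice carried a tamoxifen-inducible Cre recombinase driven by the promoter of Tagln, a smooth muscle gene, together with a tdTomato reporter, and had received tamoxifen on day 5 after birth (P5). Most muscle and vessel was cut away before the discs were digested with dispase and type II collagenase, and the cells were profiled by droplet single-cell RNA sequencing. GEO lists 4 samples at 8 weeks and 4 at P10, but each age came as 1 count matrix whose barcodes carry 1 suffix, so each age was 1 library here. Age and library therefore cannot be told apart, no difference below has a replicate check, and no p-value was computed.

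The 8-week library gave 6350 cells after filtering and removal of called doublets, with a median of 14689 UMIs, and the P10 library 6999 cells, with a median of 18300. Levels are UMIs summed over the cells of a class per 1000000 UMIs of the same cells (CPM), and each interval is an exact 95% interval that covers counting error alone. A difference is called higher or lower, or said to have risen or fallen, where it reached 2-fold and the gene had at least 100 UMIs in the 2 sums together. There were 12 barcodes that occurred in both libraries, of which 10 were among the kept cells. Doublet calling removed 131 cells at 8 weeks but marked 0 at P10, where it has not worked. The main measure of stray RNA was the level of the cartilage collagen Col2a1 in neutrophil-like cells, which reached 5.97% of the chondrocyte-like level at 8 weeks and 33.0% at P10.

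Cells were sorted into classes by marker genes, and the 10 genes and their pathway partners were kept out of the clustering. Classes with enough cells for an age comparison were NP-like (nucleus pulposus, 2302 cells at 8 weeks and 305 at P10), chondrocyte-like (1299 and 4821), hypertrophic chondrocyte-like (137 and 265), tendon fibroblast-like (1695 and 830) and endothelial-like (132 and 120). The NP-like cells carried T (brachyury, the notochord transcription factor) at 1480 CPM at 8 weeks and 1322 CPM at P10, Krt19 at 1512 and 2446 CPM, and Car3 at 18281 and 21114 CPM. Of the other notochord markers, Noto was at 0 in both ages, and Foxa1, Foxa2, Shh and Krt15 lay between 0.741 and 5.78 CPM. Over their whole lists, 13 NP markers summed to 27251 CPM at 8 weeks and 31267 CPM at P10 in NP-like cells, 14 chondrocyte markers to 13287 and 14944 CPM, 12 tendon markers to 3544 and 3187 CPM, 10 hypertrophic cartilage markers to 20377 and 3405 CPM (3 and 2 of them at 20 CPM or above), and 10 endothelial markers to 81.3 and 39.1 CPM. The part of these markers in the age ratios of NP-like cells was not tested. NP-like cells came mainly from clusters 3 and 4 at 8 weeks and from cluster 9 at P10, while the dividing cluster 15 held 130 cells at 8 weeks and 43 at P10. The chondrocyte-like class came mainly from clusters 0, 7 and 18 at 8 weeks and from clusters 10, 12, 19, 20, 21 and 26 at P10, and the tendon fibroblast-like class from clusters 5 and 6 at 8 weeks and from cluster 23 at P10, so that in these 3 classes different clusters held most cells of the 2 ages. Hypertrophic chondrocyte-like and endothelial-like cells were 1 cluster each. Clusters 2 and 8, with 527 cells at 8 weeks and 0 at P10, took no name by the marker rule.

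The stretches around the transcription starts of 4 genes are printed, chosen for the contrasts of their transcripts. Grem1 and Inhba separated the ages in tendon fibroblast-like cells. In NP-like cells, Tgfb2 and Chrd were the only genes of the set with levels above those of the other cells at both ages. Both ratios were under 2-fold at 8 weeks, and that of Tgfb2 at P10 was so under some alternatives. Single classes stood above the NP-like cells, tendon fibroblast-like cells for Chrd at both ages and chondrocyte-like cells for Tgfb2 at 8 weeks. Each runs 5′ to 3′ along the gene, from 250 bases before the start to 50 bases after it, and comes from RefSeq on the build GRCm38.p6. Capitals mark matches to 3 motifs, searched on both strands. The SMAD box is CAGAC, which reads GTCTG where it lies on the other strand. The GC-rich SMAD site is GGCGCC, the same on both strands. The TATA box is TATAAA, and no matches to different motifs overlapped in the windows printed.
Grem1, chr2:113758599-113758898, minus strand: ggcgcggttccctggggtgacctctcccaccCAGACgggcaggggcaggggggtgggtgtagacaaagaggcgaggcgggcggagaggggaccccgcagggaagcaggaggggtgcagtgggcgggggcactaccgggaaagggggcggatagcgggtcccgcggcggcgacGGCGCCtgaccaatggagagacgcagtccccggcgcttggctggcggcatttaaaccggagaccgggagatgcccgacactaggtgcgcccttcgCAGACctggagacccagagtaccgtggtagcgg
Inhba, chr13:16011601-16011900, plus strand: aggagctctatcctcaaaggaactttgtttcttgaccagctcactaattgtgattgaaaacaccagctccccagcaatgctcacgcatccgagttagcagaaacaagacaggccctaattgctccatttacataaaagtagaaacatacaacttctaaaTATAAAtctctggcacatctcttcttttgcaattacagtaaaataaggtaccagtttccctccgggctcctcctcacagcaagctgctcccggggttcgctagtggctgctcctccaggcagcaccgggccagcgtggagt
Tgfb2, chr1:186705940-186706239, minus strand: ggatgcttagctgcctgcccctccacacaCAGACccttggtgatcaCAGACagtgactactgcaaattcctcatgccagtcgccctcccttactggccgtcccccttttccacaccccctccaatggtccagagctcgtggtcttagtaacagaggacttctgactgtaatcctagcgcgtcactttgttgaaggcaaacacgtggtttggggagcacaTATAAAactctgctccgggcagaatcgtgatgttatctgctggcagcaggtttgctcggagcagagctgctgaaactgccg
Chrd, chr16:20732877-20733176, plus strand: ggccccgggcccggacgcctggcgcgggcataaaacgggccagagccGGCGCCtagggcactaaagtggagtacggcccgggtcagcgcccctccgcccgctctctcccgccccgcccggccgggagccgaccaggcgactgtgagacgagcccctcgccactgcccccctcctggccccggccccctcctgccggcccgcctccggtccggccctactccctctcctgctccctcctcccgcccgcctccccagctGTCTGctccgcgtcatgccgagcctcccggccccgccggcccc

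The 4 windows differed in composition, with 70.7% G and C in Grem1, 47.7% in Inhba, 54.3% in Tgfb2 and 78.3% in Chrd. The Grem1 window held 2 SMAD boxes and 1 GC-rich site, the Tgfb2 window 2 SMAD boxes and 1 TATA box, the Chrd window 1 SMAD box and 1 GC-rich site, and the Inhba window 1 TATA box alone. Of 32851 RefSeq promoter windows of the same length, 49.6% held a SMAD box, 11.9% the GC-rich site and 13.6% the TATA box. Promoters were matched for 7 of the 10 genes (not for Tgfb3, Bmp2 and Nog). Among the 3 matched but not printed, Tgfbi held 2 SMAD boxes and 1 GC-rich site, and Tgfb1 and Bmp4 had no match to these letters. A match is a description of the letters in the window.

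On GRCm38, 5 of the 10 genes overlap an annotated gene on the opposite strand (Tgfb2, Tgfb3, Bmp4, Inhba and Chrd), and the strand setting of the counting is not given in the sources used here, so that reads from such a neighbour cannot be told apart. The neighbour of Chrd is Thpo and that of Tgfb3 is Ttll5, while the overlaps of Tgfb2, Bmp4 and Inhba are with genes known by model names.

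**Figure D1:**
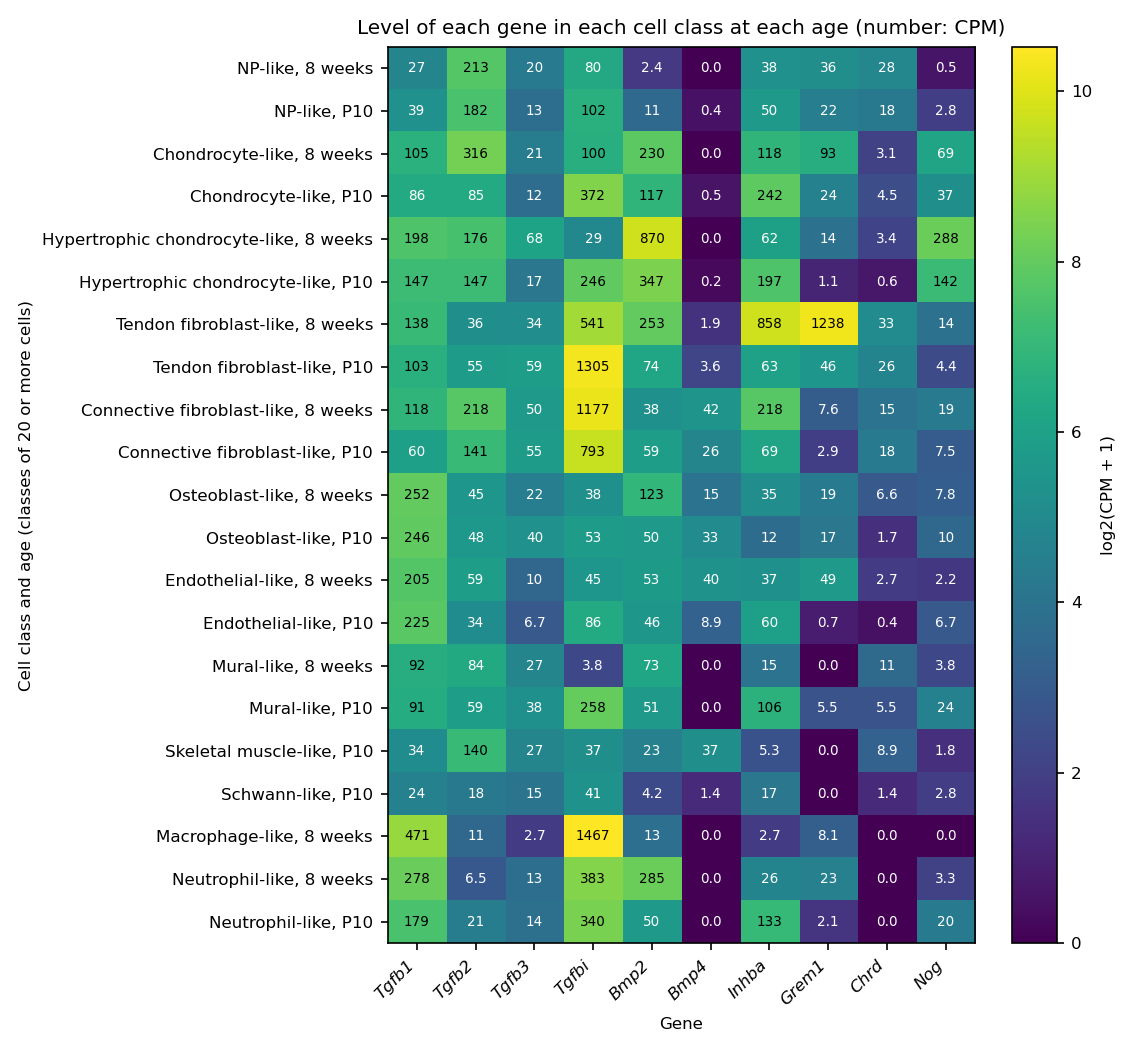
Level of each of the 10 genes (columns) in each marker-defined class at 8 weeks and at P10 (rows, classes of 20 or more cells). The colour is log2(CPM + 1) and the number in each cell is the CPM. Grem1 and Inhba peak in tendon fibroblast-like cells at 8 weeks (1238 and 858 CPM), Bmp2 and Nog in hypertrophic chondrocyte-like cells at both ages, and the NP-like row at 8 weeks is the lowest of that age for Tgfb1 and Bmp2.

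Among the TGF-beta ligands, Tgfb1 (ENSMUSG00000002603, chr7:25687002-25705077, plus strand), the isoform of platelets and bone matrix, was lowest in NP-like cells at 8 weeks. At that age it stood at 471 CPM (404 to 546) in macrophage-like, 278 CPM (222 to 344) in neutrophil-like and 252 CPM in osteoblast-like cells. It had 205 CPM in endothelial-like, 198 CPM in hypertrophic, 138 CPM in tendon fibroblast-like and 105 CPM in chondrocyte-like cells. NP-like cells held 26.8 CPM (25.3 to 28.3). At P10 the order was led by osteoblast-like cells at 246 CPM and endothelial-like cells at 225 CPM, and NP-like cells held 39.1 CPM (34.6 to 44.2). The 10 classes of 20 or more cells at 8 weeks form 9 neighbouring pairs in this order, and in 5 of them the 95% interval of the ratio included 1, as it did in 5 of the 10 pairs at P10. Within a class the level of Tgfb1 changed by less than 2-fold between the ages in all 5 classes compared, with log2 ratios of 8 weeks over P10 between -0.55 in NP-like cells and 0.43 in hypertrophic chondrocyte-like cells.

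Tgfb2 (ENSMUSG00000039239, chr1:186622792-186705989, minus strand) had the NP-like cells among its leading classes. It reached 213 CPM (208 to 217; 9338 UMIs) there at 8 weeks and 182 CPM (172 to 192; 1227 UMIs) at P10. At P10 this was the highest level of any class, and the next class, hypertrophic chondrocyte-like cells, had 147 CPM (140 to 155). Both intervals cover counting error alone. The 10 richest of the 305 NP-like cells held 403 of the 1227 UMIs at P10 (32.8%), so this lead rests in part on few cells. In hypertrophic cells at P10 the 10 richest held 19.7%, and in NP-like cells at 8 weeks 5.69%. At 8 weeks chondrocyte-like cells stood above the NP-like cells, at 316 CPM (308 to 323), while tendon fibroblast-like cells had 36.3 CPM. Tgfb2 was detected, with at least 1 UMI, in 69.5% of the NP-like class at 8 weeks (median depth 15454.5 UMIs) and in 65.9% at P10 (median depth 17519). The share among neutrophil-like cells, which gives the background, was 3.03% at 8 weeks and 6.21% at P10, but at median depths of 3621.5 and 3926 UMIs. With every cell thinned to 2000 UMIs the shares were 25.6% of NP-like and 2.08% of neutrophil-like cells at 8 weeks, and 22.6% and 1.55% at P10.

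Tgfb2 rose with age in chondrocyte-like cells, in which it had 316 CPM at 8 weeks and 85.1 CPM at P10, a 3.71-fold difference (log2 ratio 1.89, 1.85 to 1.94, and 1.28 with TMM factors). Among the 8-week clusters of this class, cluster 7 (led by Hp and Mgp) held 414 CPM, cluster 0 (led by Serpina1a) 266 CPM and the dividing cluster 18 held 202 CPM, whereas the P10 clusters ran between 12.8 CPM in cluster 26 (led by Rbp4 and Gdf5) and 126 CPM in cluster 21. Each of the 3 chondrocyte-like clusters of 20 or more cells at 8 weeks lay above each of the 6 at P10. In NP-like cells the log2 ratio of 8 weeks over P10 was 0.23 (0.14 to 0.31), under 2-fold, and its sign turned to -0.04 with TMM factors and to -0.13 when ratios were centred on the median gene.

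Tgfb3 (ENSMUSG00000021253, chr12:86056745-86079041, minus strand), the isoform needed for palate fusion, was led by hypertrophic chondrocyte-like cells at 8 weeks, at 68.5 CPM (60.1 to 77.6), ahead of tendon fibroblast-like cells at 34.2 CPM (32.0 to 36.6) and NP-like cells at 19.8 CPM (18.5 to 21.2). At P10 tendon fibroblast-like cells had 59.1 CPM (55.1 to 63.3) and chondrocyte-like cells 12.4 CPM (11.8 to 13.1). The interval of the ratio included 1 in 9 of 9 neighbouring pairs at 8 weeks and in 9 of 10 at P10, but small classes with wide intervals stand between these larger ones. In hypertrophic cells it rose 4.08-fold, with 68.5 CPM at 8 weeks and 16.8 CPM at P10 (log2 ratio 2.03, 1.74 to 2.32, and 1.25 with each library clustered on its own). In NP-like cells it had 19.8 CPM at 8 weeks and 12.8 CPM at P10, and in tendon fibroblast-like cells 34.2 and 59.1 CPM, both differences under 2-fold.

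Tgfbi (ENSMUSG00000035493, chr13:56609523-56639562, plus strand) encodes a secreted, integrin-binding matrix protein that TGF-beta induces, and was lower at 8 weeks in the 3 classes in which it reached 2-fold. In tendon fibroblast-like cells it fell to 541 CPM at 8 weeks, against 1305 CPM at P10 (log2 ratio -1.27, -1.30 to -1.24). In chondrocyte-like cells it stood at 99.8 CPM at 8 weeks and 372 CPM at P10 (log2 ratio -1.90, and -2.52 without cluster 0 and -2.51 with TMM factors), and in hypertrophic cells at 28.9 CPM at 8 weeks and 246 CPM at P10, which is 8.51-fold lower at the later age. The log2 ratio of hypertrophic cells was -3.09, and -1.80 when the libraries were clustered separately, and 70 of their 103 UMIs at 8 weeks lay in 10 cells. Its clusters also lay far apart. At P10 the Gdf5 cluster 26 held 1184 CPM and cluster 10 held 52.2 CPM, and at 8 weeks the tendon fibroblast-like cluster 5 held 739 CPM and cluster 6 held 351 CPM. Macrophage-like cells at 8 weeks had the highest level of all classes and ages, 1467 CPM (545 UMIs in 39 cells). At P10 neutrophil-like cells also carried 339.9 CPM, 91.4% of the chondrocyte-like level and above the 33.0% that Col2a1 reached there.

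Among the BMP and activin ligands, Bmp2 (ENSMUSG00000027358, chr2:133552159-133562885, plus strand), a driver of cartilage maturation and bone formation, was led by hypertrophic chondrocyte-like cells at both ages. These held 870.5 CPM (840 to 902) at 8 weeks and 347 CPM (335 to 359) at P10, a 2.51-fold rise (log2 ratio 1.33, 1.26 to 1.40) that was under 2-fold with TMM factors (0.93), at Leiden resolution 2 (0.81) and with each library clustered on its own (0.41). Tendon fibroblast-like cells had 253 CPM at 8 weeks and 73.8 CPM at P10, a 3.43-fold rise. Chondrocyte-like cells had 230.3 CPM at 8 weeks and 117 CPM at P10, a log2 ratio of 0.98, just under 2-fold, that lay between 0.37 with TMM factors and 1.97 without cluster 0. The 8-week chondrocyte-like clusters were far apart, at 542 CPM in cluster 7, 52.5 CPM in cluster 0 and 16.9 CPM in the dividing cluster 18.

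NP-like cells stood at the other end for Bmp2. They held 2.39 CPM (1.96 to 2.90; 105 UMIs) at 8 weeks, the lowest of the 10 classes, and 11.1 CPM (8.75 to 13.9; 75 UMIs) at P10, so that Bmp2 fell 4.65-fold with age (log2 ratio -2.22, -2.66 to -1.77). The ratio was -1.36 as a mean over cells and -3.19 when the libraries were clustered separately. The share of the class with a Bmp2 UMI was 4.08% at 8 weeks and 16.1% at P10. At P10 the NP-like cells also carried 9.06% of the chondrocyte-like level of Col2a1 and 9.53% of that of Bmp2, and at 8 weeks 5.64% of that of Col2a1 and 1.04% of that of Bmp2; the part of stray RNA in the age difference was not tested. In neutrophil-like cells at 8 weeks, 87 Bmp2 UMIs lay in 3.03% of 66 cells, so their 285 CPM rests on 2 cells.

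Bmp4 (ENSMUSG00000021835, chr14:46383520-46390669, minus strand), a BMP of mesenchyme and endothelium, was scarce in the disc, with 183 UMIs in the 8-week library and 259 at P10. At 8 weeks it was found in connective fibroblast-like cells at 42.0 CPM (11 UMIs), in endothelial-like cells at 40.1 CPM (90 UMIs) and in osteoblast-like cells at 15.1 CPM (25 UMIs). At P10 it was found in skeletal muscle-like cells at 37.2 CPM (21 UMIs), osteoblast-like cells at 32.6 CPM (19 UMIs) and connective fibroblast-like cells at 26.4 CPM (92 UMIs). Endothelial-like cells rose to 40.1 CPM at 8 weeks, with 90 UMIs in 34 of 132 cells, against 8.92 CPM at P10, with 24 UMIs in 14 of 120 cells (log2 ratio 2.17, 1.51 to 2.88). The chondrocyte-like cells had 0 UMIs at 8 weeks, which allows up to 0.126 CPM by the floor of 3 counts (the exact 95% interval reaches 0.155 CPM), and 46 UMIs at P10. In NP-like cells Bmp4 was at 1 UMI at 8 weeks and 3 at P10, and those 3 lay in 1 cell.

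Inhba (ENSMUSG00000041324, chr13:16011851-16031621, plus strand) encodes the subunit of activin A, a ligand that signals like TGF-beta through Smad2 and Smad3. Its leading class, as the clusters were named here, differed between the ages. Tendon fibroblast-like cells held 858 CPM (847 to 870; 21537 UMIs) at 8 weeks and 63.2 CPM (59.0 to 67.5; 868 UMIs) at P10, a 13.6-fold rise (log2 ratio 3.76, 3.67 to 3.86) that was smaller at Leiden resolution 2 (2.18) and with each library clustered on its own (2.55). Chondrocyte-like cells held 118 CPM (113 to 122) at 8 weeks and 242 CPM (239 to 245) at P10, a fall of 2.06-fold (log2 ratio -1.04, and -1.65 with TMM factors), which was under 2-fold without cells carrying markers of another class (-0.998), with each library clustered on its own (-0.98), without cluster 0 (-0.61) and without cluster 26 (-0.80). Of all Inhba UMIs, 79.2% were in tendon fibroblast-like cells at 8 weeks and 3.05% at P10, while chondrocyte-like cells had 10.3% at 8 weeks and 86.8% at P10. The classes also held unequal shares of the cells, 26.7% and 11.9% for the tendon fibroblast-like class and 20.5% and 68.9% for the chondrocyte-like class. At 8 weeks 19854 of the 21537 tendon fibroblast-like UMIs lay in cluster 6. This cluster passed 4 tendon markers and, by the chondrocyte rule, 11 chondrocyte markers, and took the tendon name. The leading class at 8 weeks therefore depends on how cluster 6 is named.

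Few cells held most of the Inhba transcripts in several classes. Its fall in hypertrophic cells, to 62.0 CPM at 8 weeks against 197 CPM at P10 (log2 ratio -1.67, and between -1.08 at resolution 2 and -2.27 with thinning), rests at 8 weeks on 221 UMIs of which 195 were in 10 cells. In NP-like cells the level was 38.4 CPM at 8 weeks and 49.5 CPM at P10, and the 10 cells with the most Inhba held 28.2% of its UMIs at 8 weeks and 84.4% at P10. Among endothelial-like cells a single cell held 67 of 84 UMIs at 8 weeks and 92 of 162 at P10. In contrast, the 10 richest cells of the tendon fibroblast-like cluster 6 held 14.8% of 19854 Inhba UMIs.

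Grem1 (ENSMUSG00000074934, chr2:113746164-113758646, minus strand), which encodes the BMP antagonist gremlin, had the largest age ratio of the 10 genes in tendon fibroblast-like cells. In tendon fibroblast-like cells it had 1238 CPM (31060 UMIs) at 8 weeks and 45.7 CPM (42.2 to 49.4; 628 UMIs) at P10, 27.1-fold higher (log2 ratio 4.76, 4.65 to 4.88). In chondrocyte-like cells it had 93.03 CPM at 8 weeks and 23.8 CPM at P10, 3.92-fold higher (log2 ratio 1.97, 1.89 to 2.05, and 1.36 with TMM factors and 2.65 with cells thinned to 2000 UMIs). In NP-like cells it had 35.6 CPM (33.8 to 37.4) at 8 weeks and 21.8 CPM (18.4 to 25.6) at P10, under 2-fold (log2 ratio 0.71). The P10 chondrocyte-like clusters ran between 1.25 CPM in cluster 21 and 138 CPM in the Gdf5 cluster 26, and without cluster 26 the class ratio was 2.83 on the log2 scale.

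The 8-week Grem1 signal lay in both tendon fibroblast-like clusters. Cluster 6 (845 cells, led by Cilp and Tnr) held 1669.7 CPM and cluster 5 (850 cells, led by Angptl7 and Clec3b) 787 CPM, against 45.7 CPM in the P10 cluster 23. Grem1 was not among the genes clustered on, but it was among the 10 leading genes of cluster 6. In cluster 6, 91.5% of cells had a Grem1 UMI, 79.4% an Inhba UMI and 72.1% both, and in cluster 5 the shares were 68.7%, 50.7% and 34.5%. Among macrophage-like cells of the same library, at a median depth of 9810 UMIs, 7.69% had a Grem1 UMI and 2.56% an Inhba UMI. Inhba was unlike Grem1 in its balance between the clusters, with 1548 CPM in cluster 6 and 137 CPM in cluster 5. Without cluster 6, an alternative chosen after the data had been seen, the age ratio of Grem1 was 4.11 and that of Inhba 1.12 on the log2 scale, both still past 2-fold, while Bmp2 (0.83), Nog (0.74) and Tgfbi (-0.82) were not.

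**Figure D2:**
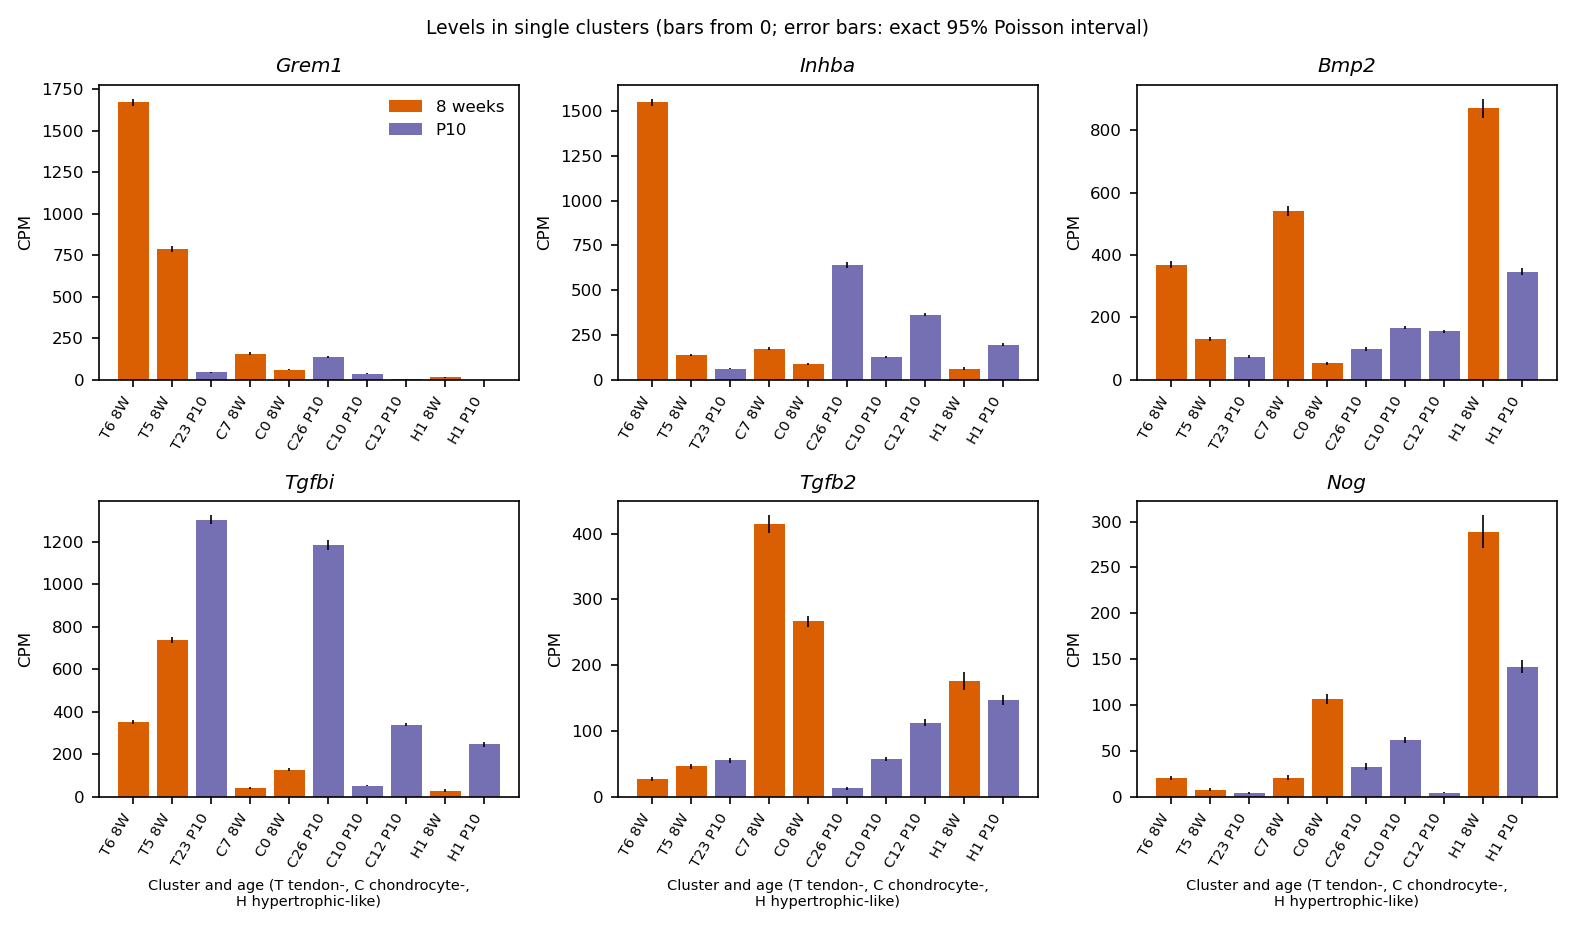
CPM of 6 of the genes in the tendon fibroblast-like (T), chondrocyte-like (C) and hypertrophic chondrocyte-like (H) clusters, with 8-week clusters in orange and P10 clusters in violet; bars start at 0 and error bars are exact 95% Poisson intervals. Cluster 6 at 8 weeks leads for Grem1 (1669.7 CPM) and Inhba (1548 CPM), cluster 23 and cluster 26 at P10 lead for Tgfbi, and cluster 1 leads for Nog at both ages.

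Cluster 6 carried markers of cartilage as well as of tendon. The 12 tendon markers summed to 38731 CPM there with Kera at 0, and the 14 chondrocyte markers to 33023 CPM with Matn1 at 0, whereas in cluster 5 the sums were 142319 CPM for tendon and 22516 CPM for chondrocyte markers. Over the whole class, chondrocyte markers summed to 27886 CPM at 8 weeks and 28191 CPM at P10, and tendon markers to 89372 CPM at 8 weeks and 177715 CPM at P10. Hypertrophic cartilage markers differed more, with 25014 CPM at 8 weeks (6 of 10 at 20 CPM or above) and 1322 CPM at P10 (4 of 10). The part of these markers in the age ratios of the class was not tested.

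Chrd (ENSMUSG00000006958, chr16:20733127-20742384, plus strand) encodes chordin, the BMP antagonist of the embryonic organizer, and was led by tendon fibroblast-like cells, with NP-like cells next in order at 8 weeks and after connective fibroblast-like cells at P10. It had 32.6 CPM (30.45 to 34.96) in tendon fibroblast-like cells at 8 weeks and 25.7 CPM (23.1 to 28.5) at P10. In NP-like cells it had 28.0 CPM (26.4 to 29.6) at 8 weeks and 18.2 CPM (15.2 to 21.8) at P10, a log2 ratio of 0.62 (0.35 to 0.90). Chondrocyte-like cells stood at 3.11 CPM at 8 weeks and 4.53 CPM at P10. Chrd was detected (at least 1 UMI) in 37.2% of the NP-like class at 8 weeks and 28.9% at P10, against 5.47% and 8.48% of chondrocyte-like cells, which had the deeper median of 16804 and 19441 UMIs. Within the NP-like cells cluster 3 had 39.7 CPM, cluster 4 had 24.7 CPM and the dividing cluster 15 had 19.7 CPM at 8 weeks and 9.03 CPM at P10. Tgfb2 took the other order at 8 weeks, with 135 CPM in cluster 3, 238 CPM in cluster 4 and 249 CPM in cluster 15. Both transcripts were found together in 29.1% of NP-like cells at 8 weeks and in 19.0% at P10.

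Nog (ENSMUSG00000048616, chr11:89300638-89302332, minus strand), which encodes noggin, lay with Bmp2 in the hypertrophic chondrocyte-like cells. These had 288 CPM (271 to 307) at 8 weeks and 142 CPM (135 to 150) at P10, a log2 ratio of 1.02 that was under 2-fold with TMM factors (0.62), when centred on the median gene (0.85), with the stricter doublet limit (0.94), at resolution 2 (0.89) and with each library clustered on its own (0.79). A Bmp2 and a Nog UMI were found in the same cell in 87 of 137 hypertrophic cells at 8 weeks (63.5%) and in 187 of 265 at P10 (70.6%), at median depths of 27124 and 38014 UMIs. Each alone was found in 83.2% (Bmp2) and 75.9% (Nog) at 8 weeks and in 83.8% and 82.6% at P10, while in NP-like cells Nog was found in 0.782% at 8 weeks and 2.62% at P10. In chondrocyte-like cells Nog stood at 68.7 CPM at 8 weeks and 37.1 CPM at P10, and this ratio of 0.89 turned to -0.90 without cluster 0, which held 107 CPM. In tendon fibroblast-like cells Nog rose to 14.0 CPM at 8 weeks, against 4.44 CPM at P10 (log2 ratio 1.66), a ratio that was under 2-fold at resolution 2 (0.95) and reached 2.36 with the stricter doublet limit.

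Counted by class, the tendon fibroblast-like cells had 5 of 9 genes tested past 2-fold between 8 weeks and P10, namely Grem1, Inhba, Bmp2 and Nog higher and Tgfbi lower. Of 10397 genes tested in that class, 24.2% were at least 2-fold higher and 5.89% lower at 8 weeks (30.0% in either direction), and the median gene had a log2 ratio of 0.41. With TMM factors these shares were 14.3% higher and 10.7% lower and the set had 4 higher and 2 lower. With centring on the median gene they were 13.5% and 11.5%, and the set had 4 higher and 3 lower. Chondrocyte-like cells had 4 of 9 past 2-fold, Tgfb2 and Grem1 higher and Tgfbi and Inhba lower, against 26.0% of 12582 genes higher and 5.75% lower (31.8% in either direction) and a median gene of 0.48. Under TMM factors the background there was 10.6% higher and 13.5% lower, under centring 12.8% and 10.8%, and in both Chrd was added to the lower genes of the set (-1.16 and -1.02).

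Hypertrophic chondrocyte-like cells had 5 of 7 past 2-fold, Tgfb3, Bmp2 and Nog higher and Tgfbi and Inhba lower, against 16.4% of 7593 genes higher and 9.23% lower (25.6% in either direction). TMM factors left 1 gene of the set higher and 2 lower there, with 8.40% of genes higher and 19.3% lower, and centring 2 and 2, with 12.1% and 13.1%. Endothelial-like cells had 2 of 7 past 2-fold, Grem1 and Bmp4, both higher, against 6.88% of 6205 genes higher and 2.66% lower (9.54% in either direction). Their Grem1 value rests on 110 UMIs at 8 weeks, of which 105 were in 10 cells, and 2 UMIs at P10 (log2 ratio 6.04, 4.16 to 9.11). At 8 weeks the endothelial-like cells also carried 4.23% of the tendon fibroblast-like level of Col1a1 and 3.96% of that of Grem1, and their tendon markers summed to 3706 CPM at 8 weeks and 1111 CPM at P10. With TMM factors 3.79% of genes were higher and 4.27% lower in this class, with centring 4.11% and 3.82%, and Tgfbi was then lower (-1.18 and -1.14). NP-like cells had 1 of 8 past 2-fold, Bmp2, which was lower, against 15.2% of 11324 genes higher and 2.83% lower (18.0% in either direction). There TMM factors gave 8.64% higher and 4.90% lower, centring 7.20% and 6.13%, and the count of 1 stood in both.

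**Figure D3:**
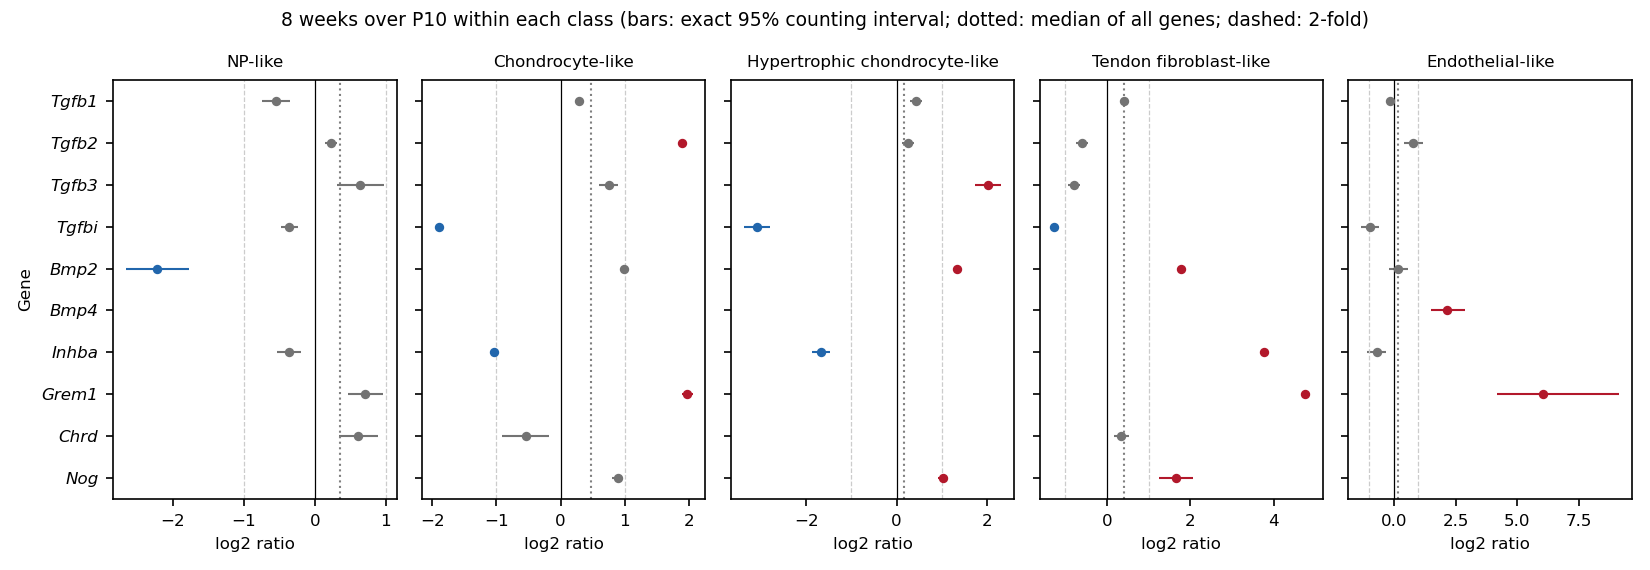
log2 ratio of the level at 8 weeks over P10 for each gene in 5 classes. Points are ratios of summed counts with exact 95% counting intervals, red at least 2-fold higher, blue at least 2-fold lower and grey between, and genes below the UMI minimum are not drawn. The dotted line is the median of all genes tested, and the tendon fibroblast-like panel reaches 4.76 for Grem1 and 3.76 for Inhba.

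NP-like cells were then set against all other kept cells of the same age, as a description, since the classes come from clusters of the same cells. At 8 weeks 0 of 10 genes were higher and 7 were lower (Tgfb1, Tgfbi, Bmp2, Bmp4, Inhba, Grem1 and Nog), where 15.6% of 13449 genes were higher and 18.7% lower (34.3% in either direction). Bmp2 was 121-fold lower, at 2.39 CPM in NP-like cells and 289 CPM in the others (log2 ratio -6.92, -7.21 to -6.64, and -6.18 as a mean over cells). Nog was 97.2-fold lower, at 0.524 and 50.9 CPM, Grem1 15.6-fold lower, at 35.6 and 556 CPM, and Inhba 10.1-fold lower, at 38.4 and 388 CPM. Bmp4 had 1 UMI in the NP-like cells and 182 in the others (log2 ratio -6.93, -12.24 to -4.43, and -5.17 at resolution 2). Bmp4 and Nog (23 UMIs in NP-like cells) reached the UMI minimum only through the other cells. Tgfb2 at 213 and 168 CPM and Chrd at 28.0 and 16.1 CPM had positive log2 ratios of 0.34 and 0.80, under 2-fold.

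At P10, 2 of 10 genes were higher in NP-like cells and 6 were lower, where 17.0% of 13105 genes were higher and 19.0% lower (36.0% in either direction). With TMM factors these shares were 11.7% and 23.2%, and 1 gene of the set was higher. Chrd was higher, at 18.2 CPM in NP-like cells and 6.63 CPM in the others (log2 ratio 1.46, 1.18 to 1.73). Tgfb2 was higher, at 182 and 86.1 CPM (log2 ratio 1.08, 0.99 to 1.17), but fell under 2-fold with TMM factors (0.81), centring (0.95), a mean over cells (0.73) or cells thinned to 2000 UMIs (0.83). The lower genes were Tgfb1, Tgfbi, Bmp2, Bmp4, Inhba and Nog, with log2 ratios between -1.29 for Tgfb1 and -3.80 for Nog. With each library clustered on its own, those of Bmp2 (-3.48), Bmp4 (-2.09) and Nog were -2.50, -1.44 and -3.15, and that of Nog was -4.80 without cells carrying markers of another class. Bmp2 (75 UMIs in NP-like cells), Bmp4 (3) and Nog (19) reached the UMI minimum only through the other cells. Grem1 had nearly equal levels at P10, 21.8 CPM in NP-like cells and 22.9 CPM in the others. The other cells of the 2 ages differ in makeup, so the ratios of the 2 ages are given side by side and were not compared.

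**Figure D4:**
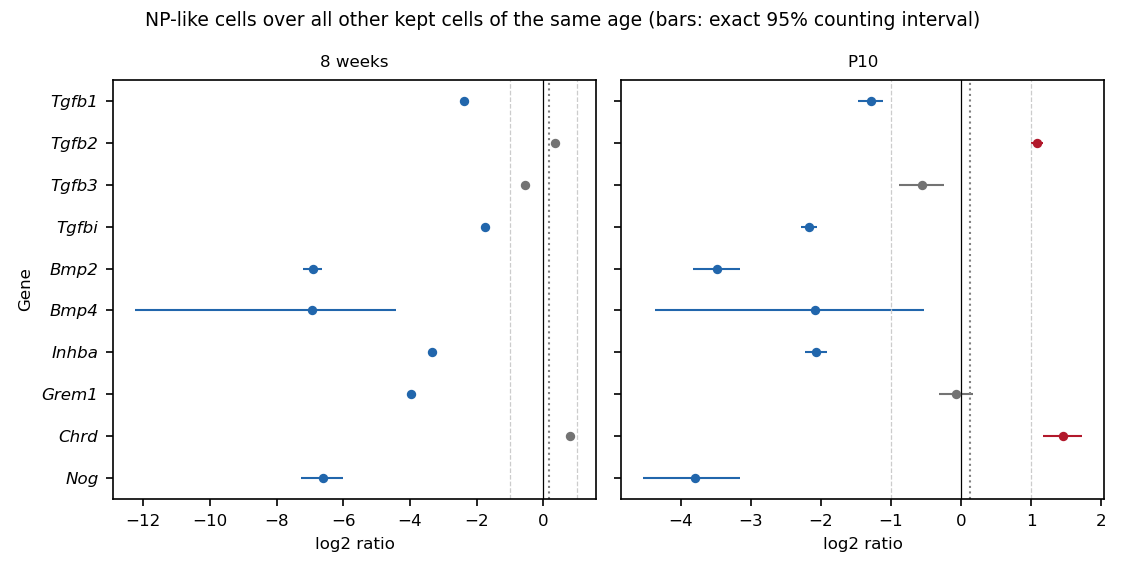
log2 ratio of the level in NP-like cells over all other kept cells of the same library, at 8 weeks (left) and P10 (right), with exact 95% counting intervals; red is at least 2-fold higher, blue at least 2-fold lower. Bmp2, Nog and Bmp4 lie farthest to the left at 8 weeks (-6.92, -6.60 and -6.93), and Chrd lies farthest to the right at P10 (1.46).

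The reporter was read from WPRE4, a sequence counted in the matrices of 96 exogenous sequences, and NP-like cells with at least 10 of its UMIs were called reporter-high. At 8 weeks 1288 reporter-high and 1014 reporter-low NP-like cells had 0 of 8 genes past 2-fold at a minimum of 50 UMIs, where 0.190% of 12122 genes were higher and 1.27% lower (1.46% in either direction). Grem1 stood at 39.7 CPM in reporter-high and 29.5 CPM in reporter-low cells (log2 ratio 0.43, 0.27 to 0.58), Tgfb2 at 196 and 238 CPM (-0.28, -0.34 to -0.22) and Chrd at 28.3 and 27.5 CPM (0.04, -0.13 to 0.21). The Grem1 ratio was 1.12, past 2-fold, with cells thinned to 2000 UMIs, and of its 524 UMIs in reporter-low cells 112 lay in 1 cell. At P10, among 204 reporter-high and 101 reporter-low cells, 1 of 8 genes passed 2-fold, where 0.850% of 8116 genes were higher and 0.296% lower (1.15% in either direction). This was Inhba, at 62.4 CPM in reporter-high and 16.4 CPM in reporter-low cells (log2 ratio 1.93, 1.39 to 2.51, and 2.78 as a mean over cells). Of its 303 UMIs in reporter-high cells, 275 lay in 10 cells and 99 in 1, and the ratio was 0.32 at resolution 2 and 0.29 when the 2 libraries were clustered separately. The reporter-high cut is a count of UMIs and moves with depth, and the median depths at P10 were 18356.5 UMIs in reporter-high and 14478 UMIs in reporter-low cells.

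Other genes of the pathway were counted from lists of 18 further ligands, 14 secreted antagonists, 12 latency and activation genes, 14 receptors, 8 Smads, 12 TGF-beta target genes (11 of them in the matrices) and 12 BMP target genes, to be read against the background shares above. Some genes, such as Smad7, are in more than 1 list, so the counts of different lists are not independent of each other. Up to 4 genes of each list, those with the most UMIs in NP-like cells, are named, and some others after their values were seen. Against all genes, TMM factors lowered the log2 ratios of 8 weeks over P10 by 0.27 in NP-like, 0.61 in chondrocyte-like, 0.40 in hypertrophic, 0.23 in endothelial-like and 0.37 in tendon fibroblast-like cells, and list counts that this turned round are given.

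Among further ligands in NP-like cells, 2 of 5 tested were higher at 8 weeks and 0 lower, against 15.2% and 2.83% of all genes. They were Bmp6, at 15.9 CPM at 8 weeks and 5.04 CPM at P10, and Lefty1, a Nodal inhibitor, at 13.9 and 5.64 CPM. Bmp5 was higher in NP-like cells than in the other cells at 8 weeks, at 49.1 and 13.1 CPM (log2 ratio 1.90). In that comparison 9 of 13 further ligands were lower, as were 18.7% of all genes tested. The UMI minimum there was taken over NP-like and other cells together. Genes with few UMIs in NP-like cells could therefore enter through the other cells. The reporter split, made within NP-like cells, tested 7 further ligands at 8 weeks. The antagonists had 0 of 7 past 2-fold with age in NP-like cells. Sostdc1, a secreted BMP and Wnt inhibitor, had 1117 CPM in NP-like cells and 6.49 CPM in the other cells at 8 weeks, and 1180 and 8.70 CPM at P10 (log2 ratios 7.43 and 7.08). In chondrocyte-like cells 3 of 11 antagonists were higher and 4 lower at 8 weeks, with the BMP-binding proteins Twsg1 (116 CPM at 8 weeks, 48.2 CPM at P10) and Crim1 (115 and 53.3 CPM) among the higher. In tendon fibroblast-like cells 4 of 10 were higher and 0 lower (2 and 1 with TMM factors), with Nbl1 at 239 CPM at 8 weeks and 99.6 CPM at P10. All genes tested were higher in 26.0% and lower in 5.75% of cases in chondrocyte-like cells. In tendon fibroblast-like cells these shares were 24.2% and 5.89%.

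Latency genes moved in both directions, with 2 of 8 higher and 1 lower at 8 weeks in NP-like cells and 2 of 10 higher and 3 lower in chondrocyte-like cells. For all genes tested the shares were 15.2% and 2.83% in NP-like and 26.0% and 5.75% in chondrocyte-like cells. Ltbp1, which binds latent TGF-beta to the matrix, had 154 CPM in NP-like cells and 24.1 CPM in the other cells at 8 weeks (log2 ratio 2.67), and 89.6 and 37.5 CPM at P10 (1.25). In chondrocyte-like cells Ltbp1 fell to 4.92 CPM at 8 weeks, against 38.4 CPM at P10 (log2 ratio -2.96). Most of the list was lower in NP-like cells than in the others, 8 of 12 genes at 8 weeks and 8 of 11 at P10, against 1 higher at each age. The shares of all genes tested were 18.7% lower and 15.6% higher at 8 weeks, and 19.0% and 17.0% at P10. Here too genes with few UMIs in NP-like cells could reach the UMI minimum through the other cells. The reporter split, made within NP-like cells, tested 9 latency genes at 8 weeks and 6 at P10.

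Of the receptor genes, 2 of 12 were higher at 8 weeks in NP-like, 3 of 13 in chondrocyte-like and 5 of 8 in hypertrophic cells. In endothelial-like cells 1 of 8 and in tendon fibroblast-like cells 4 of 13 were higher, and 0 were lower in these 5 classes. In the same order, 15.2%, 26.0%, 16.4%, 6.88% and 24.2% of all genes tested were higher. The shares of all genes that were lower were 2.83%, 5.75%, 9.23%, 2.66% and 5.89%. Under TMM factors 2 receptor genes were also lower in each of the NP-like and chondrocyte-like classes, and with centring 0 were higher and 2 lower in NP-like cells. Tgfbr3 (betaglycan, the co-receptor that presents TGF-beta2) had 98.2 CPM in chondrocyte-like cells at 8 weeks and 12.7 CPM at P10 (log2 ratio 2.95), and 113 and 13.0 CPM in tendon fibroblast-like cells (3.12). In NP-like cells it had 56.7 CPM at 8 weeks and 22.8 CPM at P10 (1.31). Tgfbr2, the type II receptor of TGF-beta, had 105 CPM in NP-like cells at 8 weeks and 40.9 CPM at P10 (1.35). Acvr2a, a type II receptor of activins and BMPs, had 88.4 CPM in NP-like cells and 7.05 CPM in the other cells at 8 weeks (log2 ratio 3.65), and 63.0 and 4.30 CPM at P10 (3.87).

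The Smads listed include carriers of the signal to the nucleus and inhibitors of it. At 8 weeks 1 of 8 was higher in NP-like, 1 of 8 in chondrocyte-like and 2 of 6 in hypertrophic cells. In endothelial-like cells 1 of 7 and in tendon fibroblast-like cells 2 of 7 were higher, and 0 were lower in any of these classes. Of all genes tested, 15.2%, 26.0%, 16.4%, 6.88% and 24.2% were higher in these classes, in this order. Those lower were 2.83%, 5.75%, 9.23%, 2.66% and 5.89%. The higher Smads, named after their values were seen, were mostly the inhibitory Smad6 and Smad7. Smad6 was higher in NP-like, endothelial-like and tendon fibroblast-like cells, and Smad7 in chondrocyte-like, hypertrophic and tendon fibroblast-like cells. Smad3 was higher in hypertrophic cells. Smad7, the inhibitory Smad that TGF-beta induces, had 497 CPM in hypertrophic cells at 8 weeks and 163 CPM at P10 (log2 ratio 1.61), and 289 and 77.3 CPM in tendon fibroblast-like cells (1.90). In NP-like cells Smad7 had 73.1 CPM, against 260.2 CPM in the other cells, at 8 weeks (log2 ratio -1.83).

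TGF-beta target genes had 6 of 9 higher and 1 lower at 8 weeks in hypertrophic cells (median log2 ratio 1.41, all genes 0.17), and 5 of 11 higher and 2 lower in chondrocyte-like cells (median 0.89, all genes 0.48), where TMM factors gave 2 higher and 3 lower. Among all genes tested, 16.4% were higher and 9.23% lower in hypertrophic cells, and 26.0% and 5.75% in chondrocyte-like cells. Timp1, an inhibitor of matrix metalloproteinases, fell in NP-like cells, to 114 CPM at 8 weeks against 245 CPM at P10 (log2 ratio -1.10). Its log2 ratio was also past 2-fold on the lower side in hypertrophic cells (-1.23), endothelial-like cells (-2.20) and the tendon fibroblast-like class (-1.03). In NP-like cells 1 of 10 TGF-beta targets was higher and 1 lower with age, against 15.2% and 2.83% of all genes. Against the other cells, 7 of 11 were lower and 0 higher in NP-like cells at 8 weeks, and 6 of 11 lower and 0 higher at P10. There 18.7% of all genes tested were lower and 15.6% higher at 8 weeks, and 19.0% and 17.0% at P10. Within NP-like cells alone, the reporter split tested 10 TGF-beta targets at 8 weeks and 9 at P10.

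BMP target genes had 5 of 6 higher and 0 lower at 8 weeks in hypertrophic cells (median log2 ratio 1.84, all genes 0.17), and 5 of 8 higher and 0 lower in tendon fibroblast-like cells (median 2.09, all genes 0.41). The all-gene shares were 16.4% higher and 9.23% lower in hypertrophic cells, and 24.2% and 5.89% in tendon fibroblast-like cells. Id1, which encodes an inhibitor of basic helix-loop-helix factors and is an immediate target of BMP Smads, had 283 CPM in hypertrophic cells at 8 weeks and 41.8 CPM at P10 (log2 ratio 2.76), but 244 and 250.3 CPM in tendon fibroblast-like cells. Id4 had 112 CPM in tendon fibroblast-like cells at 8 weeks and 17.5 CPM at P10 (log2 ratio 2.67), and 425 and 182 CPM in NP-like cells (1.23). In NP-like cells 2 of 9 BMP targets were higher and 0 lower with age (median 0.46, all genes 0.35), and 1 higher and 1 lower with centring. All genes tested gave 15.2% higher and 2.83% lower there, and 7.20% and 6.13% with centring. Against the other cells, Id4 was higher in NP-like cells at 8 weeks (425 and 69.8 CPM) and at P10 (182 and 19.6 CPM). Between reporter-high and reporter-low NP-like cells, 1 pathway gene passed 2-fold at each age, Dlx5 at 8 weeks and Ctgf at P10, both named after their values were seen. In this split 1.46% of all genes tested at 8 weeks and 1.15% at P10 passed 2-fold in either direction.

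**Figure D5:**
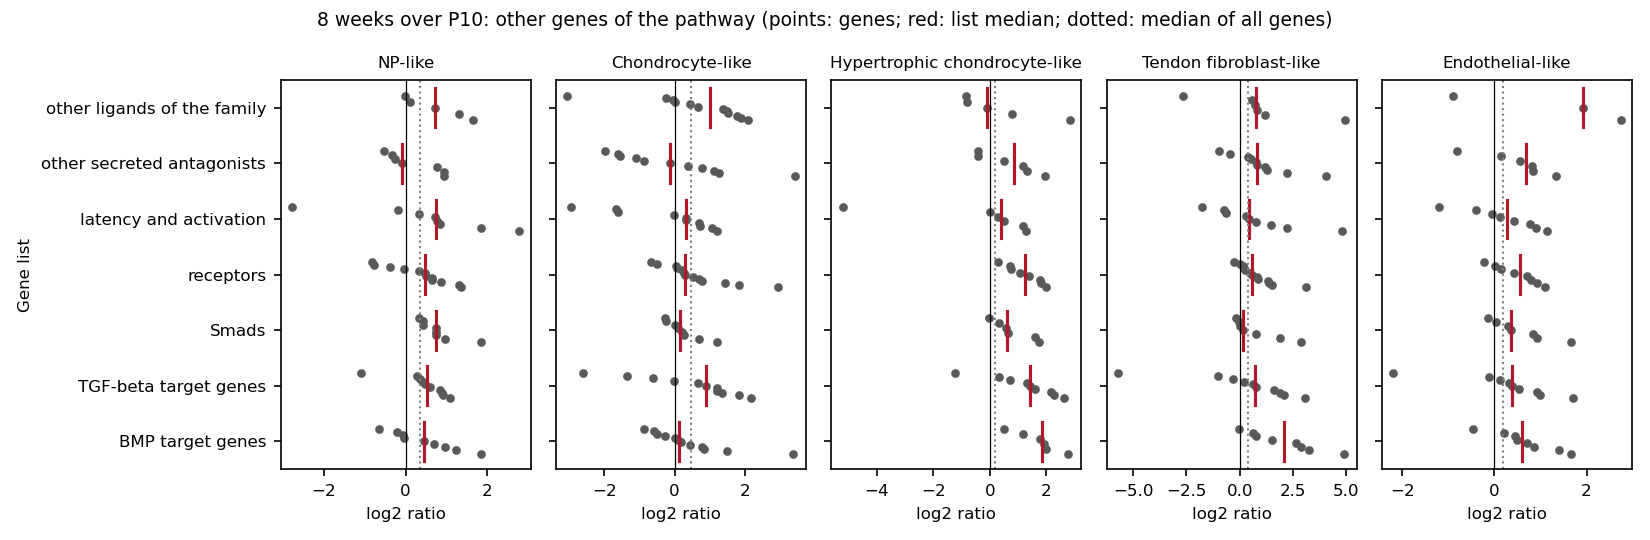
log2 ratio of 8 weeks over P10 for the other pathway genes, by list (rows) and class (panels); grey points are genes with at least 100 UMIs, the red bar is the list median and the dotted line the median of all genes tested. The BMP target genes of the hypertrophic and tendon fibroblast-like panels have medians of 1.84 and 2.09, and in the NP-like panel the antagonists lie within 2-fold.

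The genes whose levels followed each member most closely over the 17 class-by-age sums of 50 or more cells were sought among 11114 genes by the Pearson correlation of log2(CPM + 1); the sums share their 2 libraries, and the values are a description. Chrd was followed by Mrgprf (r = 0.95) and Ptgfrn (0.87), and Tgfb2 by Cdk10 (0.93) and Rhbdd3 (0.86). Nog was followed by Tmie (0.94), the transcription factor Foxa3 (0.91) and Crispld1 (0.91), and Bmp2 by Camkk2 (0.88), Herpud1 (0.86) and the cartilage matrix gene chondroadherin, Chad (0.84). Grem1 was followed by Slurp1 (0.87) and Clu (0.86), which encodes the chaperone clusterin, and Inhba by H6pd (0.87) and Scin (0.84). Tgfb1 was followed by Tnfaip2 (0.87) and the endothelial and blood factor Fli1 (0.84), Tgfbi by Emp3 (0.84) and Tgfb3 by S1pr2 (0.79), the weakest of these leading values. Bmp4 was under the minimum of 500 UMIs.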

How the data were processed

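The deposited files hold, per the file headers, 1 sparse matrix of raw UMI counts per age, with gene and barcode lists, and a like matrix of 96 exogenous sequences. Per the submitters' processing notes the authors used Cell Ranger 3.1.0 and Seurat 3 on mm10 (GRCm38); the counting options are not given in the sources used here. The 8-week library held 7597 barcodes and 115097999 UMIs and the P10 library 7690 barcodes and 143203550 UMIs. Cells with at least 500 genes, 1000 UMIs and at most 15% mitochondrial UMIs were kept, and Scrublet doublets (in scanpy 1.11.5) were removed at an expected rate of 6%. Normalised log counts of 2000 variable genes, without the 10 genes and the pathway lists, were reduced to 30 components and clustered (15 neighbours, Leiden resolution 1, 28 clusters).

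Clusters were named from 19 marker lists, needing 3 markers at 2-fold and in 25% of cells (for chondrocytes 8 in 50%), and 12 classes were found. The needs for Col10a1 in hypertrophic and Bglap in osteoblast-like clusters, and the 20 CPM from which a marker of some other class is counted as present, date from after the data had been seen. The 10 genes and all lists were chosen with earlier results of these data known. Counts were summed per class and age, Poisson intervals and exact conditional binomial intervals of ratios (95%) were taken from scipy 1.17.1, a count of 0 was given a floor of 3 counts, and TMM factors came from edgeR 4.0.16. Splits by reporter used a minimum of 50 UMIs. The ratio script was tested on simulated data. UMIs of 1 library come from an unknown number of animals, so intervals cover counting error only. All 10 genes are named in every class, of each pathway list up to 4 genes with the most UMIs in NP-like cells (1 TGF-beta target gene among them is not reported here), and for likeness in pattern the 3 genes of highest correlation. Some other pathway genes were named after their values were seen. Gene positions are from GENCODE vM21 on GRCm38 and promoters from RefSeq on GRCm38.p6.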

Additional observations from a re-analysis of the deposited data

How the results depend on the processing

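No paired analysis was possible because each age is 1 matrix with no map from its cells to the 4 samples, and for the same reason no replicate could be left out. Of 33 ratios of the 10 genes past 2-fold over 9 comparisons, 33 kept their sign under every alternative that gave a value (up to 16 for each comparison) and 25 also stayed past 2-fold; the other 8 are given with the results. The count of genes past 2-fold between 8 weeks and P10 in NP-like cells was 1, and became 2 with a minimum of 20 UMIs, 3 with no minimum, 4 at 1.5-fold and 0 with cells thinned to 2000 UMIs. In chondrocyte-like cells it was 4, and 7 at 1.5-fold and 7 at resolution 0.5. In hypertrophic cells it was 5, and 3 with TMM factors, 3 at resolution 2 and 3 when the libraries were clustered separately; resolution 0.5 gave no value there. In tendon fibroblast-like cells it was 5, and 2 without cluster 6. In endothelial-like cells it was 2, and 4 with no minimum, 5 at 1.5-fold and 0 with thinning. For reporter-high over reporter-low cells it was 0 at 8 weeks and 1 with thinning. At P10 it was 1, and 2 with no minimum, 3 at 1.5-fold, 0 with thinning, 0 at resolution 2, 0 with separate clustering, and 2 with the reporter taken as at least 1000 WPRE4 UMIs per 1000000 in cells of at least 5000 UMIs. The counts of 7 and 8 for NP-like cells over the others stayed within 1.5 times under each alternative run. Thinning leaves fewer genes over the UMI minimum, and the causes of the other shifts were not tested. The share of all genes past the same cut is given above for the main setting, TMM factors and centring alone. Counts under the other alternatives have no such share beside them. They show how far a count moves and do not compare the set with all genes. Alternatives without clusters 0, 6 or 26 were chosen after seeing the data. Endothelial-like, hypertrophic and P10 NP-like sums, of 120 to 305 cells, limit what can be detected for Bmp4, Chrd, Nog and Tgfb3.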
